A study of Homo sapiens with 8 samples.

Results

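The 87 genes described here encode the nuclear subunits of the 5 oxidative phosphorylation complexes, out of 17309 genes listed in SW480 and DLD-1 colorectal cancer cells. They were chosen by name, with earlier results of these data known. Symbols that start with NDUFA, NDUFB, NDUFC, NDUFS, NDUFV, UQCR, COX4 to COX8, ATP5F1, ATP5M or ATP5P were taken. CYC1 and the SDHA to SDHD genes were added, and assembly factors and pseudogenes were left out. By complex they divide into 37 genes of complex I, 4 of complex II, 10 of complex III, 16 of complex IV and 18 of complex V. The other 2 are readthrough genes, NDUFC2-KCTD14 and ATP5MF-PTCD1. The complex IV genes include NDUFA4 and NDUFA4L2, whose current symbols are COXFA4 and COXFA4L2 and which are named here by their older ones.

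SW480 and DLD-1 are established human colorectal cancer lines. Each was infected with a lentivirus that carried a short hairpin RNA against the acetyltransferase NAT10 (shNAT10) or a control hairpin (shControl), which gave 4 groups of 2 libraries labelled as biological replicates, 8 in all. The labels do not say which NAT10 hairpin was used, and all groups carried a virus, so no uninfected cells were compared. Nothing beyond the replicate label says that cultures were separate, so p-values measure the spread between these libraries, which may be technical. Poly(A) RNA was read single-end on the BGISEQ-500 platform, and counts had been estimated per transcript. Between 15147805 and 17271336 counts were assigned per library, and the members, tested or not, took from 1.02% to 1.21% of them. In such bulk libraries fewer cells with a transcript and less of it per cell cannot be told apart. Values below are CPM (counts scaled to the library total) after TMM normalization unless stated. Log2 fold changes, standard errors (SE) and adjusted p-values came from edgeR's quasi-likelihood test over 13619 genes, of which 81 were members. "Called" means a Benjamini-Hochberg adjusted p below 0.05 over all genes tested. The 6 members below the filter on low counts were UQCRHL, COX6B2, COX7B2, COX8C, ATP5MGL and ATP5MF-PTCD1.

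Oxidative phosphorylation is carried out in the inner mitochondrial membrane. Complexes I and II pass electrons from NADH and succinate to coenzyme Q, complex III passes them on to cytochrome c, and complex IV gives them to oxygen. Proton pumping by complexes I, III and IV drives complex V, the ATP synthase. Most subunits are encoded in the nucleus and imported, and a few core subunits are encoded in mitochondrial DNA. None of the 13 mitochondrially encoded subunits was found among the genes listed, so they are not described. Transcription of the nuclear genes is known to draw on nuclear respiratory factors, ETS-family proteins, YY1 and oestrogen-related receptors.

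NAT10, the hairpin's target, was checked first. In SW480 its level was 122 and 122 CPM in the shControl libraries and 23.6 and 27.9 CPM in the shNAT10 libraries. In DLD-1 it was 121 and 121 CPM in shControl and averaged 56.7 ± 3.25 CPM in shNAT10 (SD, n = 2). Both knockdown libraries lay below both controls in each line, with 21.0% of the control mean left in SW480 and 46.9% in DLD-1. Defining markers fitted the labels in part. Of the epithelial markers, EPCAM, CDH1, KRT8, KRT18, KRT19 and CDX2 were above 35 CPM in every library, VIL1 was from 4.20 to 15.8 CPM and LGALS4 from 0.651 to 2.57 CPM, whereas KRT20 was under 0.3 CPM in SW480 and from 17.5 to 20.6 CPM in DLD-1. Fibroblast, endothelial and muscle markers stayed under 4 CPM in every library, as did the leukocyte markers apart from CD68 (at most 30.7 CPM).

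Promoter sequences of members were taken from RefSeq windows on GRCh38.p14, from 250 bases before to 50 after the first listed start, and 71 of the 87 members had one. The searched letters, on both strands, were the palindromic consensus of nuclear respiratory factor 1 (NRF1), CCGGAAG for ETS proteins, AAGATGGC for YY1 and AAGGTCA for oestrogen-related receptors. The ETS and YY1 letters can overlap in AAG, and 0 member promoters held that joined form. The NRF1 consensus was in 17 of the 71 windows (23.9%, against 6.28% of all 27305 promoters and 11.2% of those of tested genes). CCGGAAG was in 20 (28.2%, against 10.7% and 18.7%), AAGATGGC in 11 (15.5%, against 3.03% and 5.16%) and AAGGTCA in 9 (12.7%, against 3.97% and 2.71%). At least 1 of the 4 was in 41 windows (57.7%, against 32.6% of tested genes). By complex, the NRF1 consensus was in 4 of 7 complex III promoters, 2 of 3 of complex II, 6 of 32 of complex I, 4 of 13 of complex V and 1 of 15 of complex IV. GGGCGG, the SP1 box, was in 59.2% of member windows and 69.6% of those of tested genes, and TATAAA in 8.45% and 6% of them. A match in these letters is a description of the sequence and no evidence of binding.

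Of the members that rose in SW480 after NAT10 knockdown (described below), SDHB, ATP5ME and NDUFB10 have a listed promoter, and the 200 bases before their start are shown so that they can be compared. Capitals mark a match to 1 of the 4 searched motifs, on either strand. NDUFB10 had none in this stretch.
SDHB (chr1:17054033-17054232, minus strand): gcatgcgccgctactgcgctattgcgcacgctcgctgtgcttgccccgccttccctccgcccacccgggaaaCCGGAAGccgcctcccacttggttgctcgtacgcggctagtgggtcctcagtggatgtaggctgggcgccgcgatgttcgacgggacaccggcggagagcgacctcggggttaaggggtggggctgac
ATP5ME (chr4:674277-674476, minus strand): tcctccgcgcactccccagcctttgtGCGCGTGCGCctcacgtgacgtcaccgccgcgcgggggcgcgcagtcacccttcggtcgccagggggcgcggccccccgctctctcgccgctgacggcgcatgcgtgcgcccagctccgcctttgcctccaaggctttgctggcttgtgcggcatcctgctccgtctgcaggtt
NDUFB10 (chr16:1959338-1959537, plus strand): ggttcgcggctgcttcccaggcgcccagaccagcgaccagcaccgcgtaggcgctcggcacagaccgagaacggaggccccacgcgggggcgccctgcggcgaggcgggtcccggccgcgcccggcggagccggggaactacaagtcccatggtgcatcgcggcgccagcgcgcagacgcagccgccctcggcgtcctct

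The members with 2 different motifs in the same stretch were NDUFB4, SDHD, UQCR11 and ATP5PF, and these are shown for those pairs. Capitals again mark matches.
NDUFB4 (chr3:120596136-120596335, plus strand): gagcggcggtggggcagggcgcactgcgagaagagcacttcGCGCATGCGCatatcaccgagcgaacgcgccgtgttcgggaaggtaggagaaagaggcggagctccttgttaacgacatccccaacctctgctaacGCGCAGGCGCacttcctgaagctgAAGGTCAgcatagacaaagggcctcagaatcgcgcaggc
SDHD (chr11:112086673-112086872, plus strand): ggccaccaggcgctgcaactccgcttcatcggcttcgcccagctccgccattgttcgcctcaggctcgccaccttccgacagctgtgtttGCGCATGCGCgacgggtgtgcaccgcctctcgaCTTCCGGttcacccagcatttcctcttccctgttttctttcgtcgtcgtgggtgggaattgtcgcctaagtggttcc
UQCR11 (chr19:1605463-1605662, minus strand): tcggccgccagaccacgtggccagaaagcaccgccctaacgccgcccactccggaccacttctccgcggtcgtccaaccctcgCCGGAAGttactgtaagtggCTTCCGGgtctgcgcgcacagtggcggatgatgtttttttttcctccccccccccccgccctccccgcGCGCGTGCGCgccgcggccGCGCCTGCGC
ATP5PF (chr21:25735055-25735254, minus strand): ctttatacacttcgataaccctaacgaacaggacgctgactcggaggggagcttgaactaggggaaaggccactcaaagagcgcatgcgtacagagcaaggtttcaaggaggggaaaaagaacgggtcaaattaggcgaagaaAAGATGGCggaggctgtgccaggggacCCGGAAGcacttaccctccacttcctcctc
NDUFB4, SDHD and UQCR11 held the NRF1 consensus, which lay 159 and 63 bases before the start in NDUFB4, 110 in SDHD, and 29 and 10 in UQCR11. None of these 4 members was called in a knockdown comparison, and none of the 4 passed the limits on fold change and unadjusted p given below in either line.

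The members were abundant. Summed over complexes I to V they gave 10037 to 12223 CPM per library. On the FPKM scale, which divides counts by length, the highest mean level was that of NDUFB1 in complex I (602 FPKM), SDHB in complex II (184), UQCRH in complex III (446), COX6B1 in complex IV (1239) and ATP5MF in complex V (1177). The length behind the deposited FPKM was only 63 bases for NDUFB1 and 172 for ATP5MF, and a small divisor of this kind raises FPKM, so the order of very short genes is uncertain. Next in complex I was NDUFA13 (442 FPKM), an accessory subunit. By counts, ATP5F1B, the catalytic beta subunit of ATP synthase, stood highest with 1020 to 1216 CPM over the 8 libraries, and was named after its values were seen.

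In SW480 the members were on balance higher after NAT10 knockdown. A log2 fold change above 0 was measured for 78 of 81 tested members (96.3%), against 47.8% of all genes tested, and one below 0 for 3 (against 51.9%). The median member was 0.15 higher on the log2 scale (1.11-fold), against −0.01 over all genes. Called higher were 4 members, NDUFB10, SDHB and ATP5ME among them, or 4.94% of those tested against a background of 0.778% of genes called higher. Called lower were 0 members, against 0.903% of all genes. DESeq2 called 5 members higher and 0 lower, with no share of all genes given here. By edgeR at an unadjusted p below 0.05, 32 were higher (39.5%, against 8.69%) and 0 lower (against 10.6%). With the study's limits (fold change above 1.2 or below 0.83 at an unadjusted p below 0.05), 17 members were higher (21%, against 4.1%) and 0 lower (against 4.98%). Both knockdown libraries lay above both controls for 42 members (51.9%, against 21.7% of all genes) and below both for 1, NDUFA5 (against 26.2%).

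**Figure D1:**
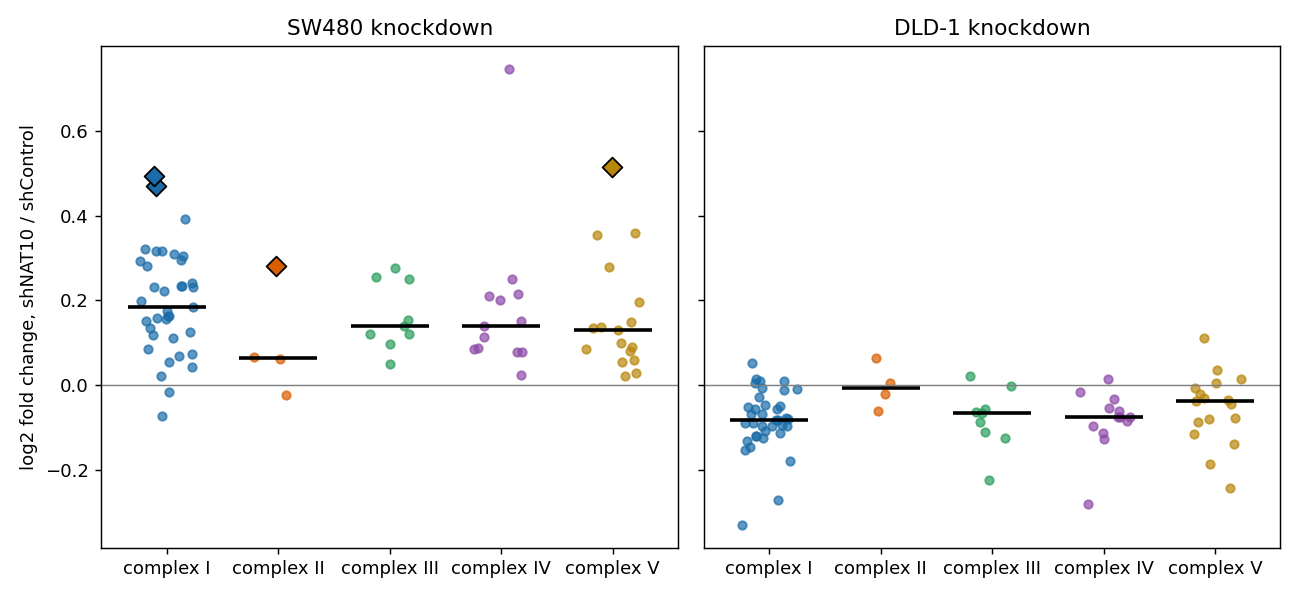
Log2 fold change (shNAT10 over shControl) of each tested member, by complex, in SW480 (left) and DLD-1 (right). Each point is a member, the bar is the median of the complex, and diamonds mark called members, which are 4 in SW480 and 0 in DLD-1.

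For the mean effect of both lines edgeR called 1 of 81 members higher (1.23%) and 0 lower, beside 0.455% of all genes called higher and 0.565% called lower. At an unadjusted p below 0.05 the mean effect was higher for 5 members (6.17%, against 6.7% of all genes).

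NDUFB10 (Entrez gene 4716, chr16:1959538-1961975 on GRCh38), an accessory subunit in the membrane arm of complex I, was measured at 60.3 and 54.8 CPM in SW480 shControl and at 83.7 and 75.6 CPM in SW480 shNAT10. The DLD-1 libraries gave 97.8 and 102 CPM in shControl and 87.0 and 96.7 CPM in shNAT10. The groups did not overlap in either line, and the direction was opposite. The log2 fold change was 0.47 in SW480 (SE 0.084, adjusted p = 0.017, edgeR) and −0.12 in DLD-1 (SE 0.0816, adjusted p = 0.92).

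SDHB (Entrez gene 6390, chr1:17018722-17054032), the iron-sulfur subunit of succinate dehydrogenase, was at 130 and 125 CPM in SW480 shControl and at 159 and 151 CPM in SW480 shNAT10. In DLD-1 it was between 129 and 133 CPM in the control libraries and at 131 and 132 CPM in the knockdown libraries. The SW480 groups were apart, and those of DLD-1 overlapped. The log2 fold change was 0.28 in SW480 (SE 0.0648, adjusted p = 0.043, edgeR) and 0.00 in DLD-1 (SE 0.0652, adjusted p = 1).

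ATP5ME (Entrez gene 521, chr4:672436-674276), a small membrane subunit of ATP synthase at the interface between dimers, was at 37.6 and 32.6 CPM in SW480 shControl and at 50.5 and 49.8 CPM in SW480 shNAT10. The DLD-1 libraries gave 45.5 and 47.9 CPM in shControl and 37.0 and 45.2 CPM in shNAT10. Again the groups of each line did not overlap and pointed in opposite directions. The log2 fold change was 0.51 in SW480 (SE 0.0981, adjusted p = 0.02, edgeR) and −0.19 in DLD-1 (SE 0.0979, adjusted p = 0.88).

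**Figure D2:**
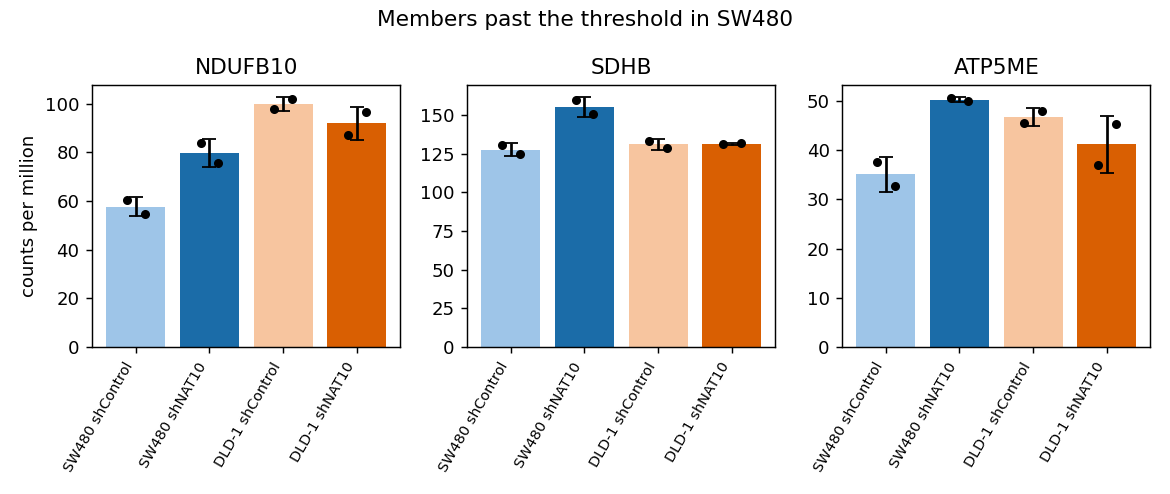
CPM of NDUFB10, SDHB and ATP5ME in each group, with bars for the mean of 2 libraries, error bars for the SD and points for the libraries. In SW480 both shNAT10 points lie above both shControl points for each of the 3 genes, whereas in DLD-1 NDUFB10 and ATP5ME lie lower after knockdown.

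The calls changed when single libraries were left out, which left 1 library in a group. Over these 8 fits the SW480 log2 fold change ran from 0.39 to 0.54 for NDUFB10 and from 0.24 to 0.32 for SDHB. For ATP5ME it ran from 0.42 to 0.62. The counts in this paragraph have no share of all genes beside them, so they describe the members only. Without SW480 shControl replicate 2, 0 members were called higher in SW480 by edgeR. When replicate 1 of either SW480 group was left out, 1 member was called, and NDUFB10, SDHB and ATP5ME were not. Without SW480 shNAT10 replicate 2, 31 members were called. With each DLD-1 library left out in turn, 3 were called and SDHB was not.

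Complex I members had a median log2 fold change of 0.18 in SW480, and 35 of 37 lay above 0. The 4 succinate dehydrogenase genes had a median of 0.06 and the summed level of complex II was 635 and 620 CPM in shControl and 675 and 660 CPM in shNAT10. Complex III had a median of 0.14 over 9 tested genes. UQCR10, a small subunit of complex III, had the largest value of that complex, at 67.0 and 64.6 CPM against 84.9 and 74.4 CPM. Its groups did not overlap, but the log2 fold change of 0.28 was not called (SE 0.0922, adjusted p = 0.14, edgeR). Complex IV had a median of 0.14 over 13 genes and complex V one of 0.13 over 17, all of them above 0 in both complexes. The members below 0 in SW480 were NDUFA5, NDUFS1 and SDHD (−0.07, −0.02 and −0.02), named after their values were seen.

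The summed level of complex I was 3021 and 2820 CPM in SW480 shControl and 3513 and 3107 CPM in SW480 shNAT10. The sums were apart between groups for complexes I, II and III, and overlapped for IV and V. For complex IV they were 2039 and 1841 against 2298 and 2005 CPM. Summed over all 5 complexes the control libraries gave 10835 and 10037 CPM and the knockdown libraries 12223 and 10905 CPM. The means differed 1.11-fold and the groups were narrowly apart, with replicate 1 the higher library in both.

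In DLD-1 most members had values slightly below 0 after knockdown, and 0 were called. A log2 fold change below 0 was measured for 68 of 81 members (84%, against 49% of all genes tested), with a median of −0.07 against 0 over all genes. Of all genes 0.0147% were called lower and 0% higher in this line. By edgeR at an unadjusted p below 0.05, 4 members were lower (4.94%, against 2.94%) and 0 higher (against 3.03%). DESeq2 called 0 members, with no share of all genes given here. With the study's limits 2 members were lower (2.47%, against 1.34% of all genes) and 0 higher (against 1.34%). These were NDUFB1 and NDUFA1, both small accessory subunits of complex I. Both knockdown libraries lay below both controls for 30 members (37%, against 18.2% of all genes) and above both for 2, SDHA among them (against 17.7%). Complex medians were −0.08 for I, −0.01 for II, −0.07 for III, −0.07 for IV and −0.04 for V.

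NDUFB1 had the largest fall of complex I in size, at 37.8 and 37.2 CPM in DLD-1 shControl and 25.5 and 34.3 CPM in DLD-1 shNAT10. The groups were apart, with the knockdown libraries themselves far apart. The log2 fold change was −0.33 (SE 0.13, adjusted p = 0.81, edgeR). UQCRB, the complex III subunit that lies near the quinone site, was at 148 and 135 against 118 and 125 CPM (log2 fold change −0.22, SE 0.071, adjusted p = 0.59, edgeR). ATP5F1E, the epsilon subunit of the ATP synthase catalytic part, was at 83.6 and 80.4 against 68.6 and 70.2 CPM (−0.24, SE 0.0791, adjusted p = 0.63, edgeR). None of these differences passed the adjusted threshold. SDHA, the flavoprotein of succinate dehydrogenase, was the member of complex II with the largest value, 0.07, and its 8 libraries spanned only 216 to 232 CPM.

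The 2 knockdown effects had opposite signs for most members. The difference between lines (SW480 effect minus DLD-1 effect) was above 0 for 79 of 81 members (97.5%, against 47.9% of all genes), with a median of 0.23. DESeq2 called 2 members in the difference, with no share of all genes given here. By edgeR's test of the difference 0 members were called, as were 0% of all genes in this direction and 0.00734% in the other. At an unadjusted p below 0.05 the difference was above 0 for 30 members (37%, against 4.5%) and below 0 for 0 (against 4.88%). By the study's limits these were 28 (34.6%, against 3.8%). ATP5ME had a difference of 0.70 (SE 0.139) and NDUFB10 one of 0.59 (SE 0.117), both with an adjusted p of 0.17 (edgeR). As single libraries were left out in turn, the median difference ran from 0.14 to 0.33.

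Transcript length moved with these values. The length behind the deposited FPKM had a median of 506 bases over the tested members and 2733 bases over 13115 other genes. In SW480, other genes of up to 250 bases had a median log2 fold change of 0.16, those of 250 to 500 bases 0.15, those of 500 to 1000 bases 0.14, those of 1000 to 2000 bases 0.07, those of 2000 to 4000 bases −0.02 and longer ones −0.11. In DLD-1 the same classes ran from −0.08 in the shortest to 0.01 in the longest. The part of length in the members' values was not tested. In SW480 the 53 members of up to 1000 bases had a median of 0.20 and the 1286 other genes of that length 0.14. The 28 longer members had a median of 0.09, with 25 above 0, against −0.03 for 11829 other genes. The members' median was above that of other genes in each of the 6 classes in SW480. The classes were small, from 3 members over 4000 bases to 27 members at 250 to 500 bases. In the shortest class the 11 members had a median of 0.21, against 0.16. In DLD-1 the medians were −0.08 for the shorter members and −0.07 for the longer, against −0.04 and 0.00 for other genes.

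With the trend on length taken out of each library, the median member changed by 0.03 in SW480, with 54 of 81 above 0 (66.7%, against 49.3% of all genes), and by −0.02 in DLD-1, with 32 above 0. NDUFB10 was still called in SW480, ATP5ME had an adjusted p of 0.055 and SDHB one of 0.18 (edgeR), and 3 members were called in all. The share of all genes called in that fit is not given here.

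Single libraries differed within groups as well. In SW480 the median member was 0.17 higher in shNAT10 replicate 1 than in shControl replicate 1, with 76 of 81 above 0, and 0.28 higher than in shControl replicate 2, with 79 above 0. It was 0.12 higher in shNAT10 replicate 2 than in shControl replicate 2 (76 above 0), and 0.01 higher than in shControl replicate 1, with 44 above 0. The 1286 other short genes (up to 1000 bases) gave 0.19, 0.29, 0.10 and 0.00 for the same pairs. The 81 members include 28 longer than that, so the 2 sets differ in length. Around each gene's SW480 mean, the 53 short members had medians of −0.04 and −0.16 in shControl and 0.21 and −0.02 in shNAT10. The other short genes had −0.02 and −0.12 in shControl and 0.17 and −0.02 in shNAT10. In SW480 the members and the other short genes ranked the 4 pairs in the same order. The pairs reuse the same libraries and are not independent. In DLD-1 the 4 pairs had medians from −0.11 to −0.02 for the members and from −0.09 to 0.00 for the other short genes. Their order differed there. The lowest pair was shNAT10 replicate 1 against shControl replicate 1 for the members, and shNAT10 replicate 2 against shControl replicate 1 for the other short genes.

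More members were called between the cell lines than with knockdown. In shControl libraries 31 members were called higher in SW480 than in DLD-1 (38.3%, against 38.1% of all genes) and 26 lower (32.1%, against 35.6%), so the 70.4% called in either direction was near the 73.8% of all genes. In shNAT10 libraries 45 were called higher (55.6%, against 38.2%) and 10 lower (12.3%, against 36.3%), or 67.9% in either direction against 74.5%. With the length trend removed, the shNAT10 counts were 29 higher and 31 lower. The share of all genes called in that fit is not given, so these counts are not read as a result about the members. In that fit 42 of 81 members lay above 0, against 48.2% of all genes. Without that correction the median difference was 0.02 in shControl and 0.25 in shNAT10.

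The 2 cell line comparisons share no library. They called 41 members in both with the same direction, which is 71.9% of those called in shControl and 74.5% of those called in shNAT10, against 89.9% and 89% over all genes. Of these 31 were higher and 10 lower in SW480. ATP5ME was called in opposite directions, at −0.41 in shControl and 0.29 in shNAT10. Over the 81 members the log2 differences of the 2 comparisons had a Pearson's r of 0.94, given as a description, and 0.97 over all genes.

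NDUFC2, an accessory subunit of complex I, was at 87.9 and 76.9 CPM in SW480 shControl and at 33.4 and 28.4 CPM in DLD-1 shControl. The groups were far apart, with a log2 difference of 1.42 (SE 0.101, adjusted p = 9.6e-09, edgeR) and of 1.47 in shNAT10 (adjusted p = 6.2e-09). Its readthrough partner NDUFC2-KCTD14 had 30.5% to 37.7% of the counts of the pair and moved likewise (1.18 and 1.46), but the counting divided reads between the pair, so the split is uncertain. NDUFB2, another accessory subunit of complex I, was at 66.9 and 61.5 CPM in SW480 shControl and 29.2 and 26.3 CPM in DLD-1 shControl (1.21, SE 0.1, adjusted p = 5.2e-08, edgeR).

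COX7C, a small subunit of complex IV, was lower in SW480, at 108 and 93.0 CPM against 206 and 206 CPM in DLD-1 shControl. Its log2 difference was −1.03 (SE 0.077, adjusted p = 1.6e-08, edgeR). ATP5F1D, the delta subunit of ATP synthase, stood at 73.1 and 75.1 CPM in SW480 and at 159 and 130 CPM in DLD-1 shControl (−0.96, SE 0.124, adjusted p = 6.2e-06, edgeR). ATP5F1A, the alpha subunit, was at 376 and 373 CPM in SW480 and at 634 and 616 CPM in DLD-1 (−0.74, SE 0.0605, adjusted p = 4.5e-08). These members lay on the same side in shNAT10 libraries, at −0.71 for COX7C, −0.72 for ATP5F1D and −0.71 for ATP5F1A.

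**Figure D3:**
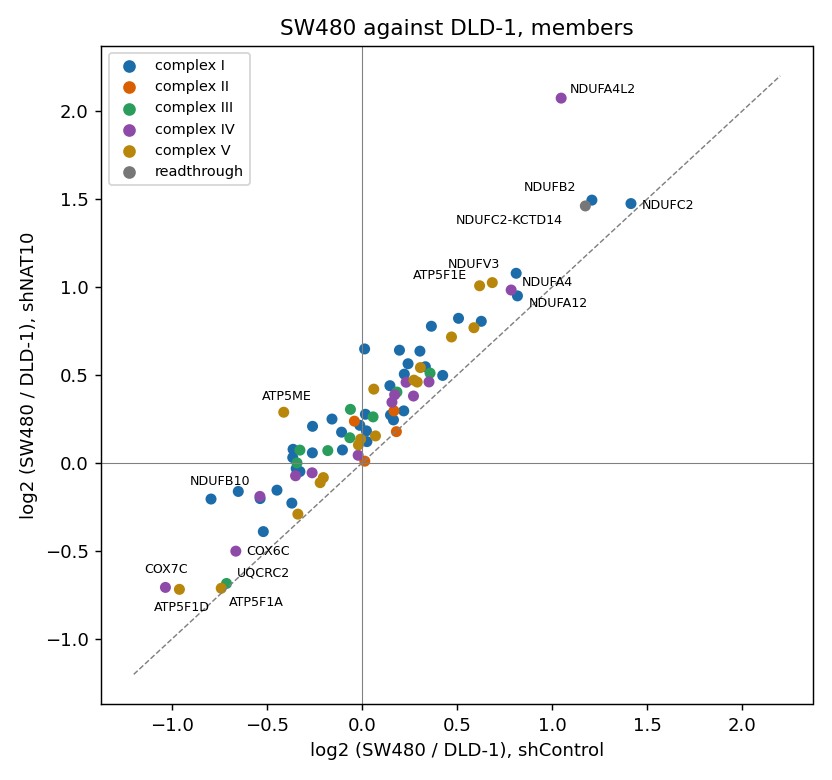
Log2 ratio of SW480 to DLD-1 for each tested member in shControl (horizontal axis) and shNAT10 libraries (vertical axis), colored by complex, with the line of equal values dashed. NDUFC2 and NDUFB2 lie far to the upper right and COX7C and ATP5F1D to the lower left, and most points lie above the line.

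Subunits of 1 complex differed in direction between the lines. Within complex I the log2 difference in shControl ran from −0.79 for NDUFB10 to 1.42 for NDUFC2, and within complex IV from −1.03 for COX7C to 0.79 for NDUFA4, with the sparsely counted NDUFA4L2 left aside. UQCRC2, the core subunit 2 of complex III, was lower in SW480 (−0.71, SE 0.0673, adjusted p = 2.3e-07, edgeR) and UQCRC1, core subunit 1, was higher (0.36, SE 0.0805, adjusted p = 0.001). Summed over each complex, the lines differed by factors of only 0.941 to 1.05 in shControl.

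Members were also set beside the other genes of their chromosome. The 4 tested members on chromosome 7 (NDUFA4, NDUFA5, NDUFB2 and ATP5MF) were all higher in SW480 in shControl, between 0.42 and 1.21, where 651 other genes of that chromosome had a median of 0.42. ATP5F1E, on chromosome 20, had 0.69 beside a median of 0.44 for 365 other genes. On chromosome 18 ATP5F1A had −0.74 and NDUFV2 −0.10, with a median of −0.29 for 172 other genes. NDUFC2 on chromosome 11 was at 1.42, beside 0.16 for 778 other genes. On chromosome X the 3 tested members COX7B, NDUFA1 and NDUFB11 lay between 0.20 and 0.31, below the median of 0.48 for 437 other genes. The 4 tested members on chromosome 16 had a median of −0.62, beside −0.13 for 645 other genes. Other chromosomes are not described here. The part of the chromosome in the members' values was not tested.

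The alternative isoforms of complex IV had few counts. COX6B2 held at most 0.16% of the counts of the COX6B1 and COX6B2 pair, and COX7B2 and COX8C had 0 or 1 counts per library, where a count of 0 allows up to 3. NDUFA4L2 had 9 and 10 counts in SW480 shControl, 15 and 17 in SW480 shNAT10, 8 and 1 in DLD-1 shControl and 4 and 3 in DLD-1 shNAT10. It was at most 0.44% of the counts of the NDUFA4 pair and passed the filter through its SW480 shNAT10 libraries. Its log2 fold change in SW480 was 0.75 (SE 0.473), the largest of any member. The filter let it pass through the group in which it was high, so no test of this change is given. The same limit applies to its call as higher in SW480 than in DLD-1 in shNAT10 libraries. NDUFA4L2 remains in the counts and medians of tested members. UQCRHL had at most 2.51 estimated counts in any library and ATP5MGL at most 2. COX4I2, COX6A2 and COX7A1 were not among the genes listed, so no values are given for them.

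The c subunit of ATP synthase, which forms the rotating ring, is encoded by 3 genes whose mature proteins are identical. On the FPKM scale ATP5MC2 gave 65.9% to 68.8% of their sum in SW480 and 55.3% to 58.0% in DLD-1. ATP5MC1 gave 21.4% to 24.9% in SW480 and 31.8% to 33.1% in DLD-1, and ATP5MC3 8.80% to 9.74% and 10.2% to 12.5%. The ranges of the 2 lines did not overlap for any of the 3 genes. The order depended on the scale. By counts, which are not divided by length, ATP5MC2 held 44.7% to 47.2% of the sum in SW480 and 34.2% to 38.0% in DLD-1. ATP5MC3 held 38.4% to 41.3% and 43.4% to 48.3%, and was thus the largest of the 3 in DLD-1. COX7A2 and COX7A2L, a subunit and a relative known for its part in supercomplexes, held 44.5% to 48.5% and 51.5% to 55.5% of the pair's counts in SW480, and 54.9% to 57.4% and 42.6% to 45.1% in DLD-1. On the FPKM scale COX7A2 was the larger in both lines, with 76.0% to 78.7% of the pair in the 3 SW480 libraries that have both values and 82.9% to 85.3% in DLD-1.

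Genes that serve the complexes were described in the same way. In SW480 the medians were 0.07 over 18 complex I assembly factors, 0.00 over 4 of complex II, 0.07 over 6 of complex III, 0.06 over 26 of complex IV and 0.10 over 7 of complex V (with the inhibitor). They were 0.02 over 16 regulators of respiratory genes, 0.05 over 8 electron carriers and entry points, 0.11 over 13 genes of coenzyme Q synthesis and 0.04 over 17 of pyruvate dehydrogenase and the TCA cycle. In DLD-1 the medians of these lists ran from −0.06 for complex V assembly to 0.08 for complex II assembly. Of these 115 genes 3 were called higher in SW480 (2.61%, against 0.778% of all genes) and 0 lower (against 0.903%), and edgeR called 0 in DLD-1 (against 0.0147% lower and 0% higher). UQCC3, a complex III assembly factor, was at 19.5 and 16.7 CPM in shControl and 29.1 and 23.6 CPM in shNAT10 (0.54, SE 0.123, adjusted p = 0.043, edgeR). ATP5IF1, which inhibits ATP synthase, was at 80.2 and 79.0 against 99.9 and 96.6 CPM (0.30, SE 0.0668, adjusted p = 0.039, edgeR), and in DLD-1 at 133 and 128 against 110 and 114 CPM (−0.23, adjusted p = 0.56). COQ10B, a coenzyme Q binding protein, was called lower for the mean of both lines (−0.25, adjusted p = 0.042, edgeR).

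PPARGC1A, the coactivator that is known to drive mitochondrial biogenesis, was at 2.35 to 5.39 CPM in SW480 and 0.118 to 0.533 CPM in DLD-1. It passed the filter on low counts through its SW480 libraries, so no test of the lines is given for it. CYCS, the somatic cytochrome c gene, was at 462 and 450 CPM in SW480 and at 277 and 265 CPM in DLD-1 shControl (0.75, SE 0.0734, adjusted p = 3.4e-07, edgeR).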

How the data were processed

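Poly(A) RNA of 8 libraries was sequenced, 2 for each of 4 groups. The authors deposited estimated counts and FPKM values per transcript, not normalized in the case of the estimated counts and per kilobase in the case of FPKM. The submitters' processing notes name HISAT2 2.0.4, Bowtie2 2.2.5, RSEM 1.2.12 and hg38 without saying which step each served. The authors' group mean columns were not used. The deposited counts were summed to genes by Entrez identifier and rounded to whole numbers, since the files hold estimates per transcript and not counts per gene. Genes passed edgeR's filterByExpr (minimum count 10, total 15). Group differences were tested in 1 model of the 4 groups with edgeR 4.0.16 (quasi-likelihood test, TMM, 4 residual degrees of freedom, R 4.3.3), Benjamini-Hochberg over 13619 genes. DESeq2 1.42.0 and limma 3.58.1 on log2(FPKM + 1) and log2(FPKM + 0.1) served as alternatives. FPKM values of SW480 shNAT10 replicate 2 were incomplete, and means used the values present. The edgeR test of the SW480 knockdown was run on simulated counts, drawn with that fit's own dispersions, and its outcome is not reported here. Figures were drawn with matplotlib 3.10.9.

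The members and lists were chosen with earlier results of these data known. Named were NAT10, members called in any of 6 comparisons (the 25 with the smallest p where more were called), the member with the largest change of each complex in each knockdown, the highest per length, the isoform pairs, and up to 5 called genes of each list. Some genes that this rule names are not reported here. A length correction with GENCODE lengths was added after seeing the data. Totals of 15147805 to 17271336 counts per library set the precision, and a count of 0 allows up to 3 counts, which covers counting error only.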

Additional observations from a re-analysis of the deposited data

How the results depend on the processing

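The number of members called higher in SW480 was 4, and became 2 with the GENCODE length correction (chosen after seeing the data), 1 with NM transcripts only, 1 with a filter of 1 count, 17 under the study's limits, 2 with limma on log2(FPKM + 0.1), 2 with limma on log2(FPKM + 1) and 1 with the line fitted alone. The SW480 median of 0.15 became 0.029 with the length correction and 0.045 with GENCODE lengths, the median difference between knockdowns of 0.23 became 0.060 and 0.083, and the median cell line difference in shNAT10 of 0.25 became 0.0060 and 0.042. In that comparison 29 members were called higher and 31 lower with the length correction, and 23 lower with GENCODE lengths. For the difference between knockdowns DESeq2 called 2 and the study's limits gave 28. The mean effect gave 0 calls with NM transcripts only and 0 with either limma fit. The study's limits gave 2 members lower in DLD-1. The cause of these changes was not tested. Apart from the study's limits, the shares of all genes called under these settings are not given here, so the counts describe the members only.

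Leaving out 1 library gave 0 to 31 members higher in SW480, 0 to 11 for the mean effect, 0 to 24 for the difference, 18 to 32 higher and 19 to 28 lower between lines in shControl, and 40 to 50 higher and 7 to 15 lower in shNAT10. Medians ran from 0.07 to 0.22 in SW480, −0.10 to −0.03 in DLD-1, 0.00 to 0.08 for the mean, 0.14 to 0.33 for the difference, −0.02 to 0.07 between lines in shControl and 0.20 to 0.29 in shNAT10. NDUFA4L2 in DLD-1 ran from −1.09 to 1.75 as single libraries were left out, against −0.28 with all. It was 1.75 without DLD-1 shControl replicate 1 and 0.12 with limma on log2(FPKM + 0.1). A lone library was assumed to vary like the other groups. The shares of all genes called are not given for these fits, so their counts describe the members only.

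With the replicate number as a block, 25 members were called higher in SW480, 11 in the difference and 4 for the mean. The share of all genes called in that fit is not given, so these counts describe the members only. The labels give same-numbered libraries only a number in common. Their deviations from the group means had a correlation of 0.415 between the SW480 groups and 0.124 between the DLD-1 groups. Between groups of different lines it ran from 0.0495 to 0.379. There are only 2 numbers, and what such libraries share was not tested.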
